A study of Rattus norvegicus with 88 samples.

Results

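rno-miR-191 and rno-miR-425, written miR-191 and miR-425 from here on, are a pair of rat miRNAs made from neighbouring hairpins within the host gene Dalrd3, and they were chosen here by name from the array's annotation as the mature miRNAs of that one host. They are 2 of the 677 rat miRNAs on the array. The pair was picked with its levels over age in view, so those levels are given as a description with no test, and tests were kept for the contrast between the sexes and for the other arms of the hairpins. Whole liver of untreated Fischer 344 rats was measured in young (2 weeks), growing (5, 6 and 8 weeks), adult (15 and 21 weeks) and older animals (52 weeks, 78 weeks and 104 weeks), 45 females and 43 males in all, with 1 animal on each of 88 arrays. Each of the 18 groups of age and sex held 5 animals, except for the males of 5 and of 104 weeks with 4. As the tissue was bulk liver, fewer cells of a type and less RNA per cell cannot be told apart.

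A miRNA hairpin is cut from a primary transcript, and 1 or both of its arms can be kept as a mature miRNA of the Argonaute complex, where the seed near its 5′ end pairs with target mRNAs. Neighbouring hairpins in 1 transcript are often made together, while the mature arms can be kept to unequal extents. miR-191 and miR-425 are found in many tissues, and miR-191 has been used as a reference in PCR of other samples. The array names the arms in the older way, in which miR-191 and miR-425 are the 5p arms and an asterisk marks the other arm.

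The sequences show how the mature arms of the locus lie and differ, while the probe sequences were not examined. In RefSeq (GRCr8) Dalrd3 covers chr8:118142009-118147082 on the plus strand, and both hairpin genes lie inside this span, Mir191 at chr8:118142627-118142717 and Mir425 at chr8:118143084-118143166, with 366 bases between them. Exons and introns of the host were not analysed here. All 5 mature miRNAs of the locus on the array were matched to the RefSeq table. The strand opposite Mir191 carries Mir3555, whose product is named miR-3555 on the array and miR-191b in RefSeq. The mature sequences follow from 5′ to 3′, with the seed (bases 2 to 8) in capitals.
miR-191 (miR-191a-5p, chr8:118142641-118142663, plus strand): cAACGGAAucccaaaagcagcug
miR-191* (miR-191a-3p, chr8:118142683-118142704, plus strand): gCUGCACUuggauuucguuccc
miR-425 (miR-425-5p, chr8:118143094-118143116, plus strand): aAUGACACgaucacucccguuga
miR-425* (miR-425-3p, chr8:118143135-118143155, plus strand): aUCGGGAAuaucguguccgcc
miR-3555 (miR-191b, chr8:118142682-118142702, minus strand): gAACGAAAuccaagugcagcu
The 5 seeds differ from one another, so the members share no seed. No other rat miRNA in the table has the seed of miR-191 or of miR-425. That of miR-191* also occurs in miR-17-2-3p, which was detected on 0 arrays. miR-191* and miR-3555 share 20 bases of the locus on opposite strands, and all 20 are complementary.

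The 2 members gave opposite detection calls in liver. rno-miR-425 was detected on 88 of 88 arrays and rno-miR-191 on 0 of 88. The value read was the total gene signal, in which the scanner software adds up the probes of a miRNA and writes 0.1 where none passes its detection rule. For miR-425 this signal ran from 4.56 to 161 arbitrary units with a median of 27.5. For miR-191 it was 0.1 on every array, at every age and in both sexes. The pair therefore has no ratio and no correlation in these data, and whether the members change together could not be measured.

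The probe signals behind these calls were examined next. miR-191 is covered by 4 probes on 20 spots, and their median signals over the 88 arrays were -0.46, -0.63, -0.38 and -0.24. No probe of miR-191 reached more than 1.38 times its own error on any array, where the software needs 3. Among the 911 probes of the miRNAs detected on no array the median signal of a probe had a median of -0.20, and between 17.9% and 47.1% of those probes lay below the respective miR-191 probes. The miR-191 probes thus lay within the range of probes with no detected target. An absent miRNA and probes that do not bind it would both give such signals, and cannot be told apart here. The lowest total gene signal detected on an array ranged from 1.84 to 5.82, which limits what a miRNA called undetected may still have given. The 2 probes of miR-425 had median signals of 22.0 and 6.01.

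**Figure D1:**
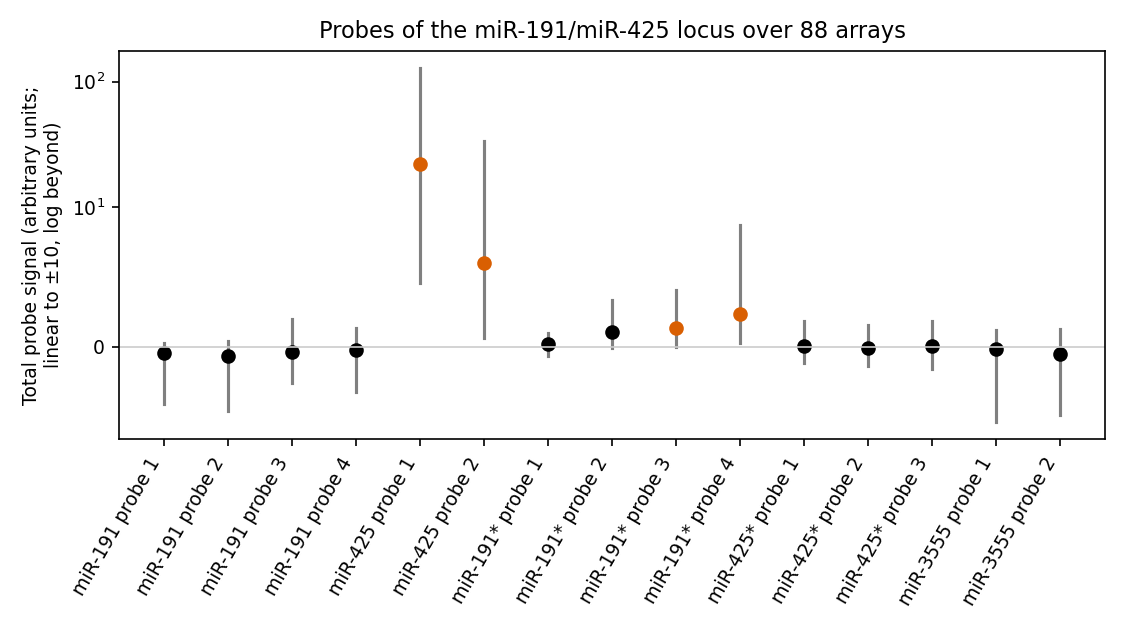
Total signal of each probe of the 5 mature miRNAs of the locus, on an axis that is linear to ±10 and logarithmic beyond. Points are medians and lines run from the lowest to the highest of 88 arrays; orange marks a probe that passed the detection rule on at least 1 array, which holds for both probes of miR-425 and for 2 of the 4 of miR-191*.

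The other products of the locus were mostly undetected. miR-425*, the second arm of the Mir425 hairpin, was detected on 0 of 88 arrays, and so was miR-3555. miR-191* was detected on 35 of 88 arrays, 25 of the 45 from females and 10 of the 43 from males, with total gene signals from 2.06 to 11.9. The Mir191 hairpin was thus seen only through the arm with the asterisk. Among the 4 probes of miR-191*, 1 passed on all 35 of these arrays, another on 1 and the rest on 0. Arrays with miR-191* detected were brighter, with a median 75th percentile of 70.0 against 54.9. Of 205 hairpins with both arms named on the array, 14 had the arm with the asterisk on more arrays than the main arm, and in 9 of these the main arm was detected on no array.

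The pair was also set beside 23 other pairs of clustered miRNAs. In 17 of these pairs both members were detected on all 88 arrays. In 0 of the 23 was 1 member on every array and the other on none. The nearest cases were miR-221 on 81 arrays with miR-222 on 0, and miR-374 on 49 with miR-421 on 0. The deviations of the 17 pairs from their group means correlated with Pearson's r from 0.24 to 0.94 (median 0.60) over 88 arrays that share depth and scan, a value that miR-191 and miR-425 cannot give.

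For comparison between arrays, the signal of miR-425 was divided by the 75th percentile of the miRNAs detected on at least 1 array, which are called expressed here, and the result is called normalized intensity. The levels of 2 weeks were among the lowest. The 5 females of 2 weeks had 0.295, 0.266, 0.196, 0.295 and 0.283. The 5 males of 2 weeks had 0.227, 0.233, 0.163, 0.243 and 0.255. Every other female array lay at 0.323 or above, whereas males of later ages reached down to 0.181. Before scaling, the total gene signal of miR-425 had a median of 29.9 arbitrary units at 2 weeks and 27.4 at later ages. The median 75th percentile was 126 at 2 weeks and 58.7 at later ages. At 5 weeks the level was 0.478 ± 0.0806 in females (SD, n = 5) and 0.461 ± 0.102 in males (SD, n = 4).

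Females then stayed between 0.436 ± 0.0907 at 6 weeks and 0.562 ± 0.0458 at 78 weeks (SD, n = 5 each). Male means lay below the female means at every age, with the lowest male mean after 2 weeks at 15 weeks (0.254 ± 0.0510, SD, n = 5). In the order of the 18 group means of the total gene signal on the log2 scale, the 2-week males were lowest, followed by the 15-week males and the 2-week females, and the 78-week females were highest. Only 1 of the 17 steps between neighbours in this order, that up to the 78-week females, was larger than the larger SD of the neighbours. When both probes were summed on every array, an alternative described with the probes further on, the 2-week females came before the 15-week males, and 2 of the 17 steps were larger, those up to the 2-week females and up to the 78-week females. On the log2 scale 2 weeks lay below the mean of the 8 later ages by 0.89 in females (-0.89) and by 0.69 in males (-0.69), and the mean of 52 to 104 weeks minus that of 5 to 21 weeks gave 0.03 and 0.08. The median of the 103 miRNAs detected on every array was -0.57 in females and -0.96 in males for the first of these, so the change of miR-425 from 2 weeks was beyond that median in females and short of it in males. With the 75th percentile taken over those 103 miRNAs instead, 2 weeks minus the later ages was -0.17 in females and turned to 0.41 in males.

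**Figure D2:**
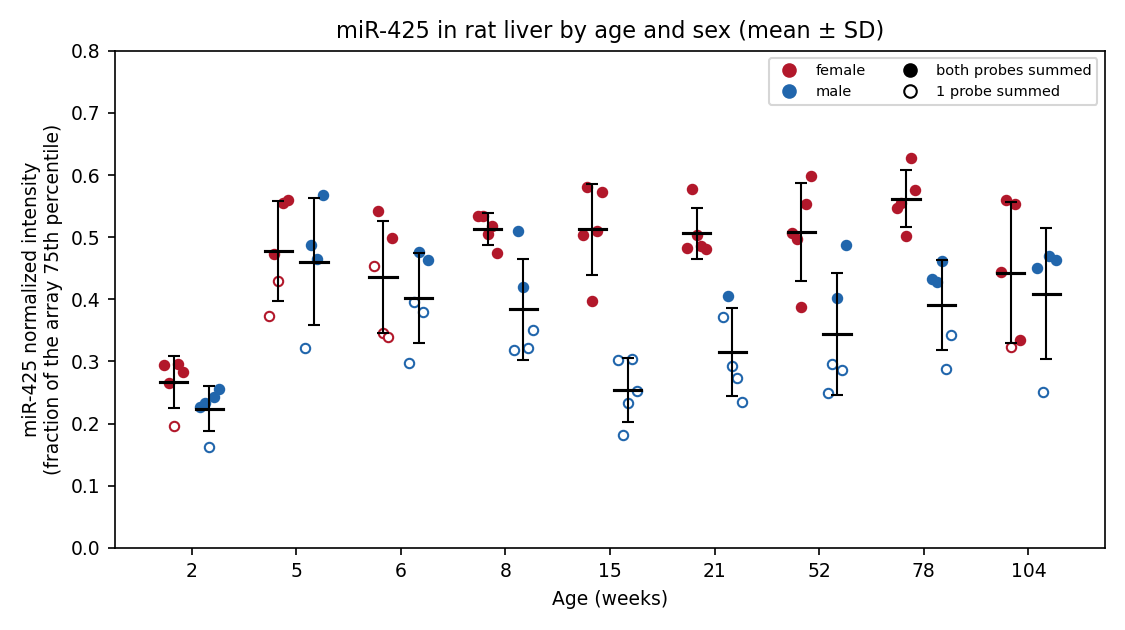
Normalized intensity of miR-425 (fraction of the array's 75th percentile) against age in weeks, 1 point per animal, with the mean and SD of each group. Filled points are arrays on which both probes of miR-425 entered the total gene signal; all 5 males of 15 weeks are open points and lie below all 5 females of that age.

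The level of miR-425 depended on how many of its probes were summed. The software added a probe only where its signal was at least 3 times its error, a rule that gave back 59576 of 59576 deposited total gene signals within 1%. The first probe of miR-425 passed on 88 arrays and the second on 58, so on 30 arrays the total gene signal held 1 probe. The second probe held a median of 21.2% of the sum of both. Both probes were summed on 38 of 45 female arrays and on 20 of 43 male arrays. At 15 weeks both were summed on 5 of 5 female and 0 of 5 male arrays, and at 21 weeks on 5 of 5 and 1 of 5. Arrays with 1 probe summed were also dimmer, with a median 75th percentile of 41.1 against 71.7. In females and males this median was 66.3 and 37.1 at 15 weeks, 52.6 and 37.9 at 21 weeks, and 64.2 and 58.0 at 52 weeks. At 15 weeks the females had 169 to 199 miRNAs detected and the males 145 to 163. The part of array brightness in the sex differences was not tested. Of the 102 miRNAs with several probes that were detected on every array, 35 (34.3%) varied in the number of probes summed. Each sex difference is therefore given for the total gene signal and again with both probes summed on every array, an alternative chosen after seeing the data.

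**Figure D3:**
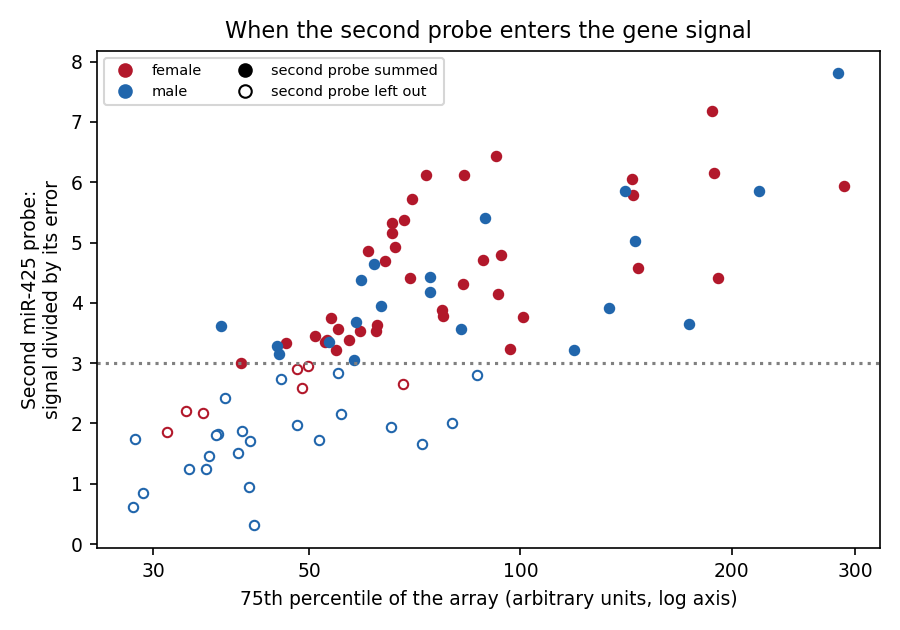
Signal of the second miR-425 probe divided by its error, against the 75th percentile of the array (arbitrary units, log axis), 1 point per array. The dotted line is the software's limit of 3; 30 arrays lie under it, 23 of them from males.

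On the total gene signal miR-425 was lower in males than in females at 15, 21 and 52 weeks, and the difference was largest at 15 weeks, the 1 age that was also called with both probes summed. At 15 weeks the females had normalized intensities of 0.504, 0.580, 0.398, 0.509 and 0.573. The males of 15 weeks had 0.302, 0.181, 0.233, 0.303 and 0.252. The sexes did not overlap. The log2 difference, male minus female, was -1.02 (SE 0.178), 2.03-fold higher in females (limma, adjusted p = 2.23e-05 over all expressed miRNAs). With both probes on every array the males had 0.374, 0.196, 0.304, 0.371 and 0.333, still below every female, and the difference was -0.72 (SE 0.129, limma, adjusted p = 2.64e-05), or 1.65-fold. It kept its call in 10 of 10 fits without 1 of these arrays on the total gene signal and in 9 of 10 with both probes summed, where the fit without male replicate 2 gave -0.56 (adjusted p = 0.00113), under 1.5-fold. The call was lost when each array was scaled by the percentile of its full set of miRNAs (-0.28) and with normexp background correction (0.0033). Neither loss can decide whether the sexes differ. Where few miRNAs were detected, that percentile fell on the constant given to undetected ones. It did so for all 5 males of 15 weeks (145 to 163 miRNAs detected) and for the female with 169, but for no other female. Normexp added an offset of 50, which narrows log2 differences, and the SD of miR-425 over the later ages fell from 0.40 to 0.11. At this age 6.05% of the expressed miRNAs were called higher in females.

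At 21 weeks the females had 0.483, 0.578, 0.504, 0.486 and 0.481. The males of 21 weeks had 0.372, 0.405, 0.293, 0.273 and 0.235, all below the females. The log2 difference was -0.71 (SE 0.178, limma, adjusted p = 0.0039), where 3.5% of miRNAs were called higher in females. With both probes summed it was -0.43 (limma, adjusted p = 0.0208), which is under the 1.5-fold asked of a call. The call was also lost with the percentile over all miRNAs (-0.37) and with normexp (-0.0019).

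At 52 weeks the females had 0.506, 0.496, 0.388, 0.554 and 0.598. The males of 52 weeks had 0.249, 0.295, 0.402, 0.286 and 0.487, and 2 of them lay within the range of the females. The log2 difference of -0.59 (SE 0.178, limma, adjusted p = 0.0198) was just beyond 1.5-fold, with 4.14% of miRNAs called higher in females. It lost its call with both probes summed (-0.36, adjusted p = 0.0626) and in 5 of 10 fits without 1 of its arrays. These were the fits without male replicate 1 (-0.49), 5 (-0.55) or 7 (-0.54) and without female replicate 8 (-0.56) or 9 (-0.53). With the percentile over all miRNAs the sign turned (0.34). That percentile fell on the undetected constant for all males but replicate 10 (140 to 165 miRNAs detected) and for no female (174 to 199). The turned sign therefore cannot decide the direction.

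At the other ages no difference was called, where the share of miRNAs called higher in females was 7.64% at 2 weeks, 0% at 5 weeks, 0.318% at 6 weeks and 0.318% at 104 weeks. At 78 weeks all 5 males were below all 5 females, with -0.54 on the log2 scale (limma, adjusted p = 0.0552) and -0.42 with both probes (adjusted p = 0.0394, under 1.5-fold), where 2.55% of miRNAs were called higher in females. At 8 weeks 4 of 5 males were below the lowest female (-0.44, limma, adjusted p = 0.171). The 8-week difference was -0.25 with both probes summed, and with the percentile over all miRNAs it turned to 0.95 (limma, adjusted p = 0.0616). At 8 weeks that percentile fell on the undetected constant for 4 of 5 males (147 to 167 miRNAs detected) and for no female (178 to 203). The turned sign therefore cannot decide the direction. The differences at 5, 6 and 104 weeks were -0.07, -0.11 and -0.12, with 95% confidence intervals of -0.44 to 0.31, -0.47 to 0.25 and -0.50 to 0.26. At 2 weeks it was -0.25, and turned to 0.14 with the percentile taken over the miRNAs detected on every array. By the exact permutation test (two-sided, adjusted over 9 ages) the total gene signal had an adjusted p of 0.0238 at 15, 21 and 78 weeks, where the sexes did not overlap, and of 0.0536 at 8 weeks, 0.0571 at 52 weeks and 0.238 at 2 weeks. With both probes summed the sexes did not overlap at 2, 15, 21 and 78 weeks (exact permutation test, two-sided, adjusted p = 0.0179 at each over 9 ages), and the same test gave an adjusted p of 0.0429 at 8 weeks and 0.0476 at 52 weeks, with no fold asked (exact permutation test; the smallest unadjusted p that 5 against 5 allows is 0.00794).

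**Figure D4:**
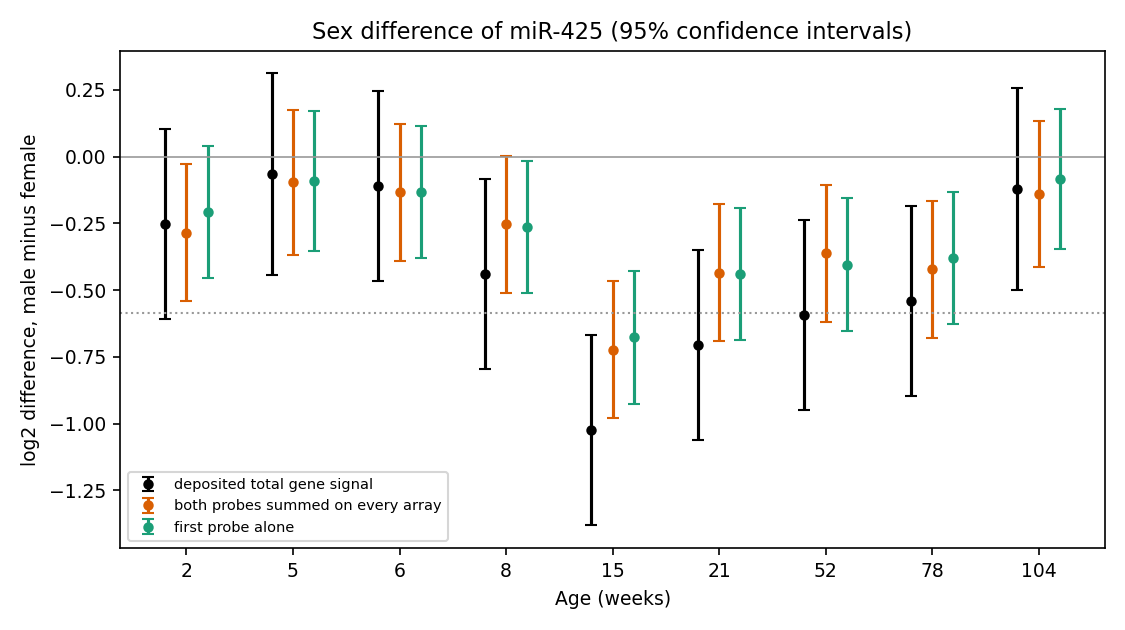
Log2 difference of miR-425 between males and females at each age with its 95% confidence interval, for the deposited total gene signal, for both probes summed on every array and for the first probe alone. The dotted line marks 1.5-fold; at 15 weeks the 3 estimates are -1.02, -0.72 and -0.68.

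Over the 8 ages from 5 to 104 weeks the mean sex difference was -0.45 on the log2 scale (SE 0.0641, 1.37-fold higher in females, limma, adjusted p = 3.46e-08), and males were lower at 8 of 8 ages. By adjusted p alone, 14.0% of the expressed miRNAs were higher in females in this contrast. miR-425 does not pass if at least 1.5-fold is asked as well, as 5.73% did. With both probes summed the mean was -0.32 (SE 0.0462, adjusted p = 4.82e-08), and with the first probe alone it was -0.31. On the arrays where the software summed both probes the mean over the 7 later ages with a value was -0.17 (limma, adjusted p = 0.0301). That choice of arrays depends on the signal of miR-425 itself and holds no male of 15 weeks. The call was lost with the percentile over all miRNAs (-0.062, limma, adjusted p = 0.883) and with normexp (-0.0096, limma, adjusted p = 0.802). The limits given for both settings at 15 weeks apply here as well. Within scans 3, 4 and 5, which held both sexes at 8, 7 and 4 of the later ages, the difference with both probes was -0.33, -0.36 and -0.30. In scan 2 it was -0.83 and rests on 1 age with 1 female and 2 males, and the remaining scan held 1 array. The sex difference varied with age on the total gene signal (limma interaction F test, adjusted p = 0.0187, with 26.4% of miRNAs called), and did not pass with both probes summed (adjusted p = 0.0993).

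Markers of other cells were read at the ages of the called differences of miR-425. The hepatocyte markers miR-122, miR-192 and miR-194 were detected at all of these ages, and their summed normalized intensity at 15 weeks ran from 860 to 1139 in females and from 964 to 1272 in males, with 0 of 3 called. Of the pancreas list 1 of 3, miR-375, was lower in males at 15, 21 and 52 weeks, and the list's sum at 15 weeks ran from 0.253 to 0.781 in females and from 0 to 0.411 in males. Of the red cell list 1 of 2, miR-451, was higher in males at 15 and 21 weeks, with sums of 5.27 to 7.35 in females and 7.82 to 19.3 in males at 15 weeks. Of the epithelium list 1 of 5, miR-200b, was higher in males at 15 weeks, with sums of 0.534 to 1.502 in females and 1.16 to 2.32 in males. Of the leukocyte list 1 of 5 on the array, miR-223, was higher in males at 52 weeks, with sums of 14.5 to 16.5 in females and 13.2 to 21.6 in males. The skeletal muscle sum at 15 weeks reached 12.2 in females and 65.6 in males, with 0 of 5 called. The part of these lists in the miR-425 difference was not tested.

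The sex difference of miR-191*, the detected arm of the Mir191 hairpin, depended on the value given to undetected arrays. At 8 weeks it was detected on 5 of 5 female and 0 of 5 male arrays, and at 52 weeks on 5 of 5 and 1 of 5. With undetected arrays set to the lowest normalized value of any array, limma gave log2 differences of -1.87 at 8 weeks (adjusted p = 0.00416, with 4.46% of miRNAs called higher in females) and -1.50 at 52 weeks (adjusted p = 0.0184). At 8 weeks 1 of 2 red cell markers, miR-451, and 1 of 5 epithelium markers, miR-200b, were called higher in males, with list sums of 4.17 to 8.00 in females and 8.16 to 17.7 in males for the first and of 1.63 to 2.07 and 2.80 to 3.73 for the second, and their part in the 8-week difference was not tested. With undetected arrays set to the lowest value detected on the same array these became 0.46 and 0.31, neither called, while 15 weeks was called in the opposite direction, higher in males (0.79, limma, adjusted p = 0.0345), as was the mean over 5 to 104 weeks (0.32, adjusted p = 0.0148, from -0.56 with adjusted p = 0.0068). The sum of the 4 probe signals, which needs no floor and was added after seeing the data, was 0.0943 ± 0.0260 in females and 0.0915 ± 0.0156 in males of 8 weeks as a fraction of the 75th percentile (SD, n = 5 each; exact permutation test, two-sided, adjusted p = 0.833 over 9 ages). No age passed with this sum, and 0 of 9 had an unadjusted exact p under 0.05. Its mean difference over the later ages was 0.00491 (permutation test, two-sided, p = 0.455), higher in males at 4 of 8 ages, and 0.00087 without male replicate 6 of 78 weeks, whose sum of 0.244 stood apart.

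**Figure D5:**
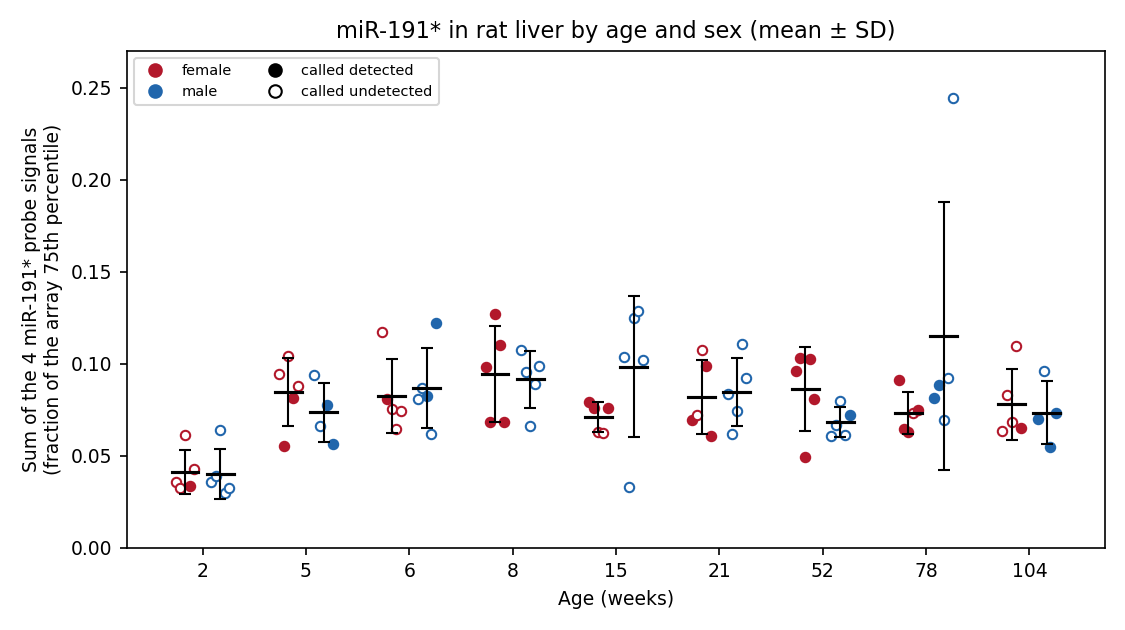
Sum of the 4 miR-191* probe signals as a fraction of the array's 75th percentile, against age in weeks, 1 point per animal, with the mean and SD of each group. Filled points were called detected by the software; at 8 weeks all 5 females are filled and no male is, while their sums overlap.

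Age was not used to choose miR-191*, so it was tested. With the same floor as in that fit it differed between ages in females (limma F test, adjusted p = 0.0023) and did not pass in males (adjusted p = 0.107). The share of miRNAs called was 57.3% in females and 54.1% in males, by this F test together with a pairwise contrast of at least 1.5-fold. In males miR-191* passed the F test with normexp (adjusted p = 0.0293) and with undetected arrays at the raw minimum (0.00999) or at the array's lowest value (0.00441). As a fraction of the 75th percentile its summed probe signal was lowest at 2 weeks, 0.0412 ± 0.0119 in females and 0.0402 ± 0.0138 in males (SD, n = 5 each), and between 0.0681 and 0.115 in the groups of later ages. Before scaling, the sum had a median of 4.21 arbitrary units at 2 weeks and 4.94 at later ages, while the median 75th percentile was 126 and 58.7.

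Set beside other miRNAs detected on every array, miR-425 followed miR-107 (r = 0.86), miR-148b-3p (0.86), miR-532-5p (0.83), miR-352 (0.81) and let-7d (0.79) most closely over the 18 group means, where the median over 102 miRNAs was 0.49. In deviations from the group means over 88 arrays the closest were miR-93 (0.64), miR-100 (0.59), miR-29a (0.57), miR-140* (0.56) and miR-17-5p (0.53). These arrays share their scaling, so the values are a description. With both probes summed the 5 closest over group means were miR-148b-3p, miR-107, miR-103, miR-24 and miR-186. In deviations they were then miR-107, miR-29a, miR-103, miR-140* and miR-93, so that miR-100 and miR-17-5p were no longer among them.

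The spread of miR-425 over both sexes and the later ages was above that of the listed reference miRNAs detected on every array. Over the 78 arrays of 5 to 104 weeks its SD was 0.40 on the log2 scale, the 71st smallest of 103, and 0.29 with both probes summed, which would rank 36th. Among miRNAs often used as references the SD was 0.17 for miR-24, 0.20 for miR-103, 0.24 for miR-16, 0.25 for miR-93 and 0.27 for let-7a. Within groups the SD of miR-425 was 0.28, and 0.20 with both probes summed, against 0.15 for miR-24 and 0.21 for let-7a, the lowest and highest of these references. miR-423 and miR-191 were detected on 0 arrays.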

How the data were processed

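Each of 88 rat livers was measured on 1 Agilent one-colour miRNA array. The authors deposited the scanner output, in which spot, probe and total gene signals are linear intensity values made with Feature Extraction (10.7.3.1 in the file headers), and 0.1 means undetected. The authors also deposited a table of ratio values, the total gene signal over the array's 75th percentile. It differed by more than 0.01% from the values used here in 1 of 15763 detected values, and in 0 of those of miR-425.

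Total gene signals were divided by the value of rank 236 of the 314 miRNAs detected on any array (undetected at 1.84), undetected values were set to 0.0120, and log2 was taken. Sexes were compared with limma 3.58.1 (R 4.3.3) over 18 groups, with Benjamini-Hochberg adjustment over 314 miRNAs and at least 1.5-fold at single ages. For the mean over 5 to 104 weeks the design asked only for the adjusted p; a first run had also applied 1.5-fold, and the rule was set back to the design with that value known, so both counts are given. Exact permutation tests used scipy 1.17.1. Fits were tested on simulated data. Scans 1 to 5 were parted by gaps of over 8 hours. The spot files hold no mean signal, so normexp (offset 50) used the median signal and median background.

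The members, lists and tests were chosen with earlier results of these data known. Named miRNAs are the members, the other arms of their hairpins, miRNAs sharing a seed, the 5 most like a member by each correlation, listed reference miRNAs, listed clustered pairs and, from lists of cell type markers, the hepatocyte markers and those called at the ages of a called difference. The number of arrays limits precision.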

Additional observations from a re-analysis of the deposited data

Results flagged for a closer look

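Several arrays stood far from the rest of their group by Dixon's test, which chance alone would give in about 1 in 20 groups; 10 such values on 7 arrays were found in 54 groups, taken over 3 measures. For miR-425 on the log2 scale of normalized intensity these were the female of 21 weeks with -0.79, the female of 2 weeks with -2.35, the male of 104 weeks with -1.99 and the male of 2 weeks with -2.62. On the last 3 of these arrays 1 probe was summed. With both probes summed the arrays apart were the same 21-week female (-0.79), the same 104-week male (-1.71) and a 6-week male (-1.48). For the summed probes of miR-191* they were a 15-week male at 0.0330, a 2-week male at 0.0639 and a 78-week male at 0.244, next to 0.0923 for the second highest of that group.

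The sex difference differed between ages by the interaction test for miR-425 (limma, adjusted p = 0.0187) and for miR-191* (adjusted p = 0.0016). The first did not pass with both probes summed (adjusted p = 0.0993) and the second did not with other floors for undetected arrays (adjusted p = 0.671 and 0.410).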

How the results depend on the processing

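The tests planned for miR-191 and for the pair could not be run, as miR-191 had no detected value. In what follows, normexp and the percentile over all 677 miRNAs have the limits given with the 15-week difference. The number of ages with a called sex difference of miR-425 (3) became 1 with either probe alone or both summed, and 0 with normexp and with the percentile over all 677 miRNAs. On arrays with both probes summed it was 0 of the 8 ages with a value, where 15 weeks could not be tested for want of males; leaving out 1 array gave 2 to 4. At 15 weeks the difference was -0.28 with the percentile over all miRNAs and 0.0033 with normexp, and -1.11 to -0.91 without 1 array. At 21 weeks it lost its call with that percentile (-0.37), normexp (-0.0019), the first (-0.44) or second probe (-0.41), both (-0.43) and arrays with both (-0.32); without 1 array it was -0.80 to -0.61. At 52 weeks the call was lost with the percentile over always-detected miRNAs (-0.46), quantile normalization (-0.44), normexp (-0.011), the first (-0.40) or second probe (-0.25), both (-0.36), arrays with both (-0.19), scan as a block (-0.57), slide as a random block (-0.56), and by the methods' t-test (adjusted p = 0.0988) and the exact permutation test (adjusted p = 0.0571) on the same -0.59, and it turned to 0.34 with the percentile over all miRNAs; without 1 array it was -0.73 to -0.49. Signs also turned at 2 weeks with the always-detected percentile (0.14), at 8 weeks with the percentile over all miRNAs (0.95) and normexp (0.034), and at 78 weeks with normexp (0.044). Without 1 array the difference was -0.36 to -0.14 at 2 weeks, -0.18 to 0.096 at 5, -0.19 to -0.0060 at 6, -0.55 to -0.38 at 8, -0.61 to -0.44 at 78 (called without male replicate 4, the lowest) and -0.22 to 0.099 at 104 weeks. The mean over 5 to 104 weeks was -0.062 with the percentile over all miRNAs and -0.0096 with normexp, without a call in both, and kept its call in 13 of 15 alternatives and without any 1 array (-0.47 to -0.42). The interaction of miR-425 was lost with the percentile over all miRNAs (adjusted p = 0.452), quantile (0.134), normexp (0.996), the first (0.0803) or second probe (0.339), both (0.0993), scan as a block (0.0781) and without the 2-week arrays (0.0586); without 1 array it was 0.0038 to 0.0484.

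Same replicate numbers did not pair the animals (mean correlation of deviations 0.053 for the same number and -0.0076 otherwise; 17 of 33 pairs above 0.1). With the replicate block the miR-425 difference was -1.03 at 15, -0.67 at 21 and -0.73 at 52 weeks, all called, and miR-191* at 52 weeks (-1.59, adjusted p = 0.0519) lost its call, leaving 1 of its 2 ages.

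For miR-191* the 2 called ages became 1 with the always-detected percentile and 0 with normexp, with the raw minimum as floor and with the summed probes; leaving out 1 array gave 1 to 3, with the 52-week call lost without female replicate 1 or 8 or male replicate 1, 5 or 6 (-1.42 to -1.41). With the floor at the array's lowest value both calls were lost and 1 other age, 15 weeks, was called higher in males, as was the mean over the later ages. With normexp, the raw minimum and the array's lowest value, the difference was 0.22, -0.54 and 0.46 at 8 weeks, 0.34, 0.18 and 0.79 at 15 weeks (from -1.19), 0.11, -0.19 and 0.31 at 52 weeks, and 0.12, 0.038 and 0.32 for the mean over 5 to 104 weeks (from -0.56). That mean was -0.24 with the always-detected percentile, without a call, and -0.61 to -0.51 without 1 array. Its interaction had adjusted p of 0.540, 0.671 and 0.410 in the same 3 settings and 0.00045 to 0.0038 without 1 array. Its age test in males passed in these settings (0.0293, 0.00999 and 0.00441) and ran from 0.0346 to 0.206 without 1 male; in females it was 0.00070 to 0.0053.

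For miR-425, 2 weeks minus the mean of the later ages was -0.17 in females and 0.41 in males with the always-detected percentile. It was -1.69 and -1.84 with the percentile over all miRNAs, -1.20 and -1.20 with quantile normalization, and -0.44 and -0.44 with normexp. Without 1 array it was -0.93 to -0.78 and -0.74 to -0.58. The mean of 52 to 104 weeks minus that of 5 to 21 weeks turned in females with the always-detected percentile (-0.15), normexp (-0.045), the first probe (-0.029) and both (-0.00032), and in males with normexp (-0.024); without 1 array it was 0.0013 to 0.067 and 0.038 to 0.157. The SD over the later ages was 0.44, 0.66, 0.35 and 0.11 with the always-detected percentile, all miRNAs, quantile and normexp, 0.28 and 0.44 with the first and second probe, 0.29 with both, and 0.38 to 0.40 without 1 array. The cause of these shifts was not tested. Signal close to background limits the second probe and miR-191*.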
